A study of Mus musculus with 20 samples.

Results

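Type I interferon stimulated genes are a set of 41 mouse genes that cells switch on when an interferon reaches their surface. They were chosen by symbol, as a fixed list, with earlier results of these data known. All 41 were found among the 27911 genes of the deposited table. Their levels were read in RNA-seq of ATDC5, a mouse line that forms cartilage-like cells in insulin-containing medium. Kmt2d encodes a histone H3 lysine 4 methyltransferase, and the mutant clones carried deletions of its catalytic SET domain on both alleles. Each of 3 Kmt2d+/+ and 2 Kmt2d-/- clones was sampled undifferentiated, in standard medium with serum (day 0), and after 7 days in medium with insulin, transferrin, selenium, ascorbic acid and beta-glycerophosphate (day 7). Every clone is its own cell line and the only biological replicate of itself at a given day. Below, the Kmt2d-/- clones are called mutant and the Kmt2d+/+ clones wild-type. The labels name Kmt2d+/+ clones 1, 2 and 3 as 10-5, 10-7 and 10-8, and Kmt2d-/- clones 1 and 2 as 10-7 and 96-9. Of the members, 40 had enough counts to be tested, among 15467 genes tested. Parp12, a zinc-finger member of the poly(ADP-ribose) polymerase family, had 0 to 2 counts in every library and was not tested. Whether the quantification assigned reads of Parp12 to other genes cannot be told from the table.

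The response is known to work as a relay. An interferon binds the receptor pair Ifnar1 and Ifnar2, the kinases Jak1 and Tyk2 are activated, and Stat2 and Irf9 enter a complex named ISGF3. The complex binds a short promoter element, the interferon-stimulated response element, and its targets include antiviral effectors, sensors of viral nucleic acid, and the factors of the relay itself. Cultured mesenchymal cells such as fibroblasts and chondrocytes can mount it without immune cells.

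The 10 libraries held 35792709 to 66237183 counts, so that 3 counts correspond to 0.0859 CPM (counts scaled to library size with edgeR's TMM factors) in the shallowest. Kmt2d itself was at 173.3 to 210.8 CPM in the wild-type libraries and at 113.2 to 205.1 CPM in the mutant libraries. Such a gene-wide level does not read out the SET domain, and so checks neither the labels nor the deletion. Mesenchymal markers summed to 24688 to 65236 CPM. Chondrogenic markers summed to 43.7 to 130.6 CPM in wild-type and 1034 to 2854 CPM in mutant clones at day 0. At day 7 they summed to 308.2 to 855.6 CPM in wild-type and 23283 to 27154 CPM in mutant clones. In this sum the mutant clones at day 0 thus already lay above the wild-type clones at day 7. The 14 immune cell markers summed to 3.37 to 7.45 CPM in every library and the 6 endothelial markers to 4.77 to 8.79 CPM. Of the immune markers Nkg7, of cytotoxic lymphocytes, was at 0 in every library, and Ptprc, which marks all leukocytes, was at most 0.139 CPM. The immune markers with the highest values were Cd14 (1.17 to 4.29 CPM) and Lyz2 (0.183 to 2.26 CPM). Most of the endothelial sum was Pecam1 (4.46 to 8.17 CPM). Most of the mesenchymal sum was Col1a1 and Col1a2, and Thy1 of that list was at most 0.0884 CPM.

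The promoters of the set were searched for the element that ISGF3 binds. Promoter windows of 250 bases before to 50 bases after the transcription start were taken from RefSeq (GRCm38.p6), which gave 31 of the 41 members a window. The element was searched as GAAANNGAAA on both strands, where N is any base and matches may overlap. It was present in 15 of the 31 members (48.4%), against 1079 of 27025 genes with a window (3.99%). With a C required after the second repeat, it was present in 13 members (41.9%) and 0.944% of all genes. TTCNNNGAA, the palindrome known as the gamma-activated site, was present in 6 members (19.4%) and 9.55% of all genes. The 6 most highly counted members that hold the element are shown because their levels are described below. They are written 5′ to 3′ on the gene's strand, with each match in capitals.
Bst2: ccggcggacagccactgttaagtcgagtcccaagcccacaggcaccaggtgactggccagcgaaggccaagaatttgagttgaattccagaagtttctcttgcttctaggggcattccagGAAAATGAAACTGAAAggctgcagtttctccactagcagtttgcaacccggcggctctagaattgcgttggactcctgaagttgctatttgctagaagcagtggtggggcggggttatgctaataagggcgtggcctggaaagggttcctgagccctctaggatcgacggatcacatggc
Ifitm3: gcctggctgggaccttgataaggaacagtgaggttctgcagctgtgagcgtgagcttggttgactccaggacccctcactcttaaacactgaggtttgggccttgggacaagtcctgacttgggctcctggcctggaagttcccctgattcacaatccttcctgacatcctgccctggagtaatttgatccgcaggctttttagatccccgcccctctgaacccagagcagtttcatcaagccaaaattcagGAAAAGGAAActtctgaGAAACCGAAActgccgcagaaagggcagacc
Ifit3: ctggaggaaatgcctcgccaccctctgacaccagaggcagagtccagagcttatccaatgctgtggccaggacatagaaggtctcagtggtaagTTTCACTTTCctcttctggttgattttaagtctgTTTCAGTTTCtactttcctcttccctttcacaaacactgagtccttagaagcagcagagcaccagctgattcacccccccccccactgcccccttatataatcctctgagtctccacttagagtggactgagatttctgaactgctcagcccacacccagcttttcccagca
Eif2ak2: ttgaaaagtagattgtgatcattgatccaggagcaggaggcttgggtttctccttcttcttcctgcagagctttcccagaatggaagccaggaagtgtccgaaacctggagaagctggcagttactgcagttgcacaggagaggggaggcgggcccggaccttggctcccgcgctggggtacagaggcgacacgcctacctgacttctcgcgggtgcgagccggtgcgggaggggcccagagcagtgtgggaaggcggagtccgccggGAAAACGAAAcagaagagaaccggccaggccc
Stat2: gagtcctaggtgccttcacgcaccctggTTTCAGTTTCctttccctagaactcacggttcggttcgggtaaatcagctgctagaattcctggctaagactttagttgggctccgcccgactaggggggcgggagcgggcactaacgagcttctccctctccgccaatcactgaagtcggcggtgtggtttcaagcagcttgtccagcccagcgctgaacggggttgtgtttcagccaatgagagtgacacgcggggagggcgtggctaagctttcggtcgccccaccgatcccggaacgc
Ifit1: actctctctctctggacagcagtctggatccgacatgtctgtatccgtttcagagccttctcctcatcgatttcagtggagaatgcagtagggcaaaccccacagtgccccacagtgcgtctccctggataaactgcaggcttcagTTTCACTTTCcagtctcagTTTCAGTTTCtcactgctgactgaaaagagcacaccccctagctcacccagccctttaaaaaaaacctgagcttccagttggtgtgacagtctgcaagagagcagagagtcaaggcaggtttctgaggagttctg
Bst2 (chr8:71537423-71537722, minus strand) holds a pair of overlapping matches at -130 to -121 and -124 to -115, with the start base counted as 0. Ifitm3 (chr7:141010695-141010994, minus strand) holds both of its matches just after the start, at 2 to 11 and 19 to 28. Ifit3 (chr19:34583279-34583578, plus strand) has TTTCACTTTC at -156 to -147 and TTTCAGTTTC at -122 to -113, which is the element read on the opposite strand. The same letters stand in Ifit1 (chr19:34640639-34640938, plus strand) at -104 to -95 and -85 to -76, and closer together. Eif2ak2 (chr17:78882523-78882822, minus strand) has 1 match at 18 to 27. Stat2 (chr10:128270248-128270547, plus strand) has 1 match at -222 to -213, far from the start. A match of letters is a description of the window and does not show binding.

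The level of the set differed widely between clones of 1 genotype. In RNA from whole cultures, fewer responding cells and less RNA per cell cannot be told apart. The mean log2 CPM of the 40 members (prior count 2) was 1.79, 7.17 and 4.97 in wild-type clones 1, 2 and 3 at day 7, and 1.68 and 3.41 in mutant clones 1 and 2. At day 0 it was 0.59, 1.90 and 0.96 in the wild-type clones and 0.12 and 0.60 in the mutant clones. Wild-type clone 2 thus stood highest at both days, and wild-type clone 1 at day 7 lay between the mutant clones. Summed over the members, day 7 held 834.5, 9945 and 2985 CPM in the wild-type clones and 462.5 and 1486 CPM in the mutant clones. Per kilobase of exon the members with the highest mean level in wild-type clones at day 7 were Bst2 (453 CPM per kb), Ifitm3 (397 CPM per kb) and Isg15 (168 CPM per kb). In mutant clones at day 7 they were Bst2 (92.1 CPM per kb), Lgals3bp (36.3 CPM per kb) and Ifitm3 (34.4 CPM per kb). At day 0 Ifitm3 led in both genotypes, with 78.1 and 26.9 CPM per kb in wild-type and mutant clones. The median level of all genes tested ranged from 4.28 to 4.31 on the log2 scale in the day 7 libraries.

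**Figure D1:**
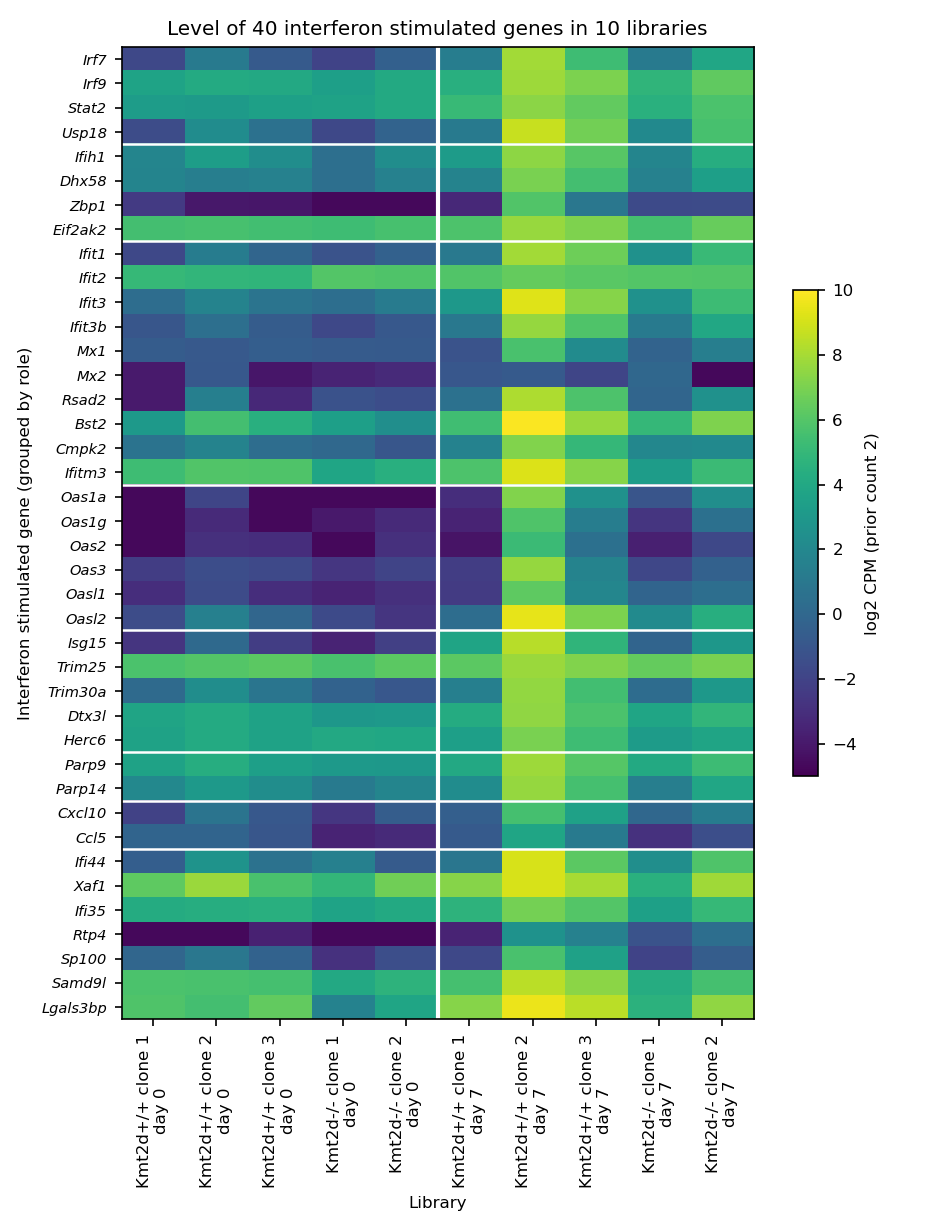
Level of the 40 tested members (rows, grouped by role) in the 10 libraries (columns), as log2 CPM with a prior count of 2, on a colour scale from -5 to 10. The day 7 columns of Kmt2d+/+ clones 2 and 3 are the brightest, with means of 7.17 and 4.97. Kmt2d+/+ clone 1 at day 7 (1.79) has a mean near that of Kmt2d-/- clone 1 (1.68). Single members differ between these 2 libraries in both directions, such as Isg15 (13.4 and 0.865 CPM) and Oas1a (0.0822 and 0.442 CPM).

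The order of the clones was nearly the same from gene to gene. At day 7, 39 of the 40 members were highest in wild-type clone 2, and 39 followed the order clone 2 over clone 3 over clone 1 within the wild-type clones, an order that 22% of all genes followed. The exception in both counts was Mx2, which was highest in mutant clone 1. Mutant clone 2 exceeded clone 1 for 38 members, against 48.2% of all genes. The lowest of the 5 clones was mutant clone 1 for 20 members, wild-type clone 1 for 18 and mutant clone 2 for 2. Wild-type clone 1 lay below both mutant clones for 18 members, between them for 19 and above them for 3.

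The distance between clones had a higher median for these genes than for all genes. The range over the 3 wild-type clones at day 7 had a median of 5.41 on the log2 scale (42.6-fold) for the members and 0.58 for all genes tested. It exceeded 3 (8-fold) for 31 of the 40 members, beside 3.8% of all genes tested. At day 0 the same range had a median of 1.32 for the members and 0.56 for all genes, and exceeded 3 for 6 members, beside 3.76% of all genes. With a prior count of 0.5 in place of 2 it exceeded 3 for 11 members at day 0, beside 5.73% of all genes. The pair of mutant clones differed by a median of 1.90 at day 7 and 0.68 at day 0, against 0.32 and 0.39 for all genes. These ranges have no test, since the clones are the replicates. The members lie on 15 chromosomes. What distinguishes the clones of 1 genotype was not tested. A property of a clone cannot be told apart from a property of its culture, because each clone has 1 library per day.

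Day 7 was compared with day 0 within the wild-type clones to ask how the set changed during differentiation. The estimate was positive for all 40 members, with a median log2 fold change of 4.47 against 0.03 for all genes tested. Without wild-type clone 2 the median was 3.13, and again all 40 estimates were positive. In edgeR's quasi-likelihood test with Benjamini-Hochberg adjustment over all genes, 6 members rose and none fell, where 3.05% of all genes rose and 2.04% fell. An unadjusted p under 0.05 was reached by 38 members, beside 24.7% of all genes. Since each clone was sampled at both days, the fit with a term for each clone (the replicate block) is given beside it. With this block 25 members rose, among 10.3% of all genes, and they included all 6 of the fit without it. DESeq2 called 37 members higher, all but Mx2, Oas3 and Xaf1, among 8.57% of all genes. Below, passing refers to edgeR unless DESeq2 is named. Without wild-type clone 1 or clone 3 no member passed, without clone 2 there were 3, and without either mutant clone there were 2. The values below are CPM in clones 1, 2 and 3 of wild-type, and in clones 1 and 2 of mutant genotype.

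**Figure D2:**
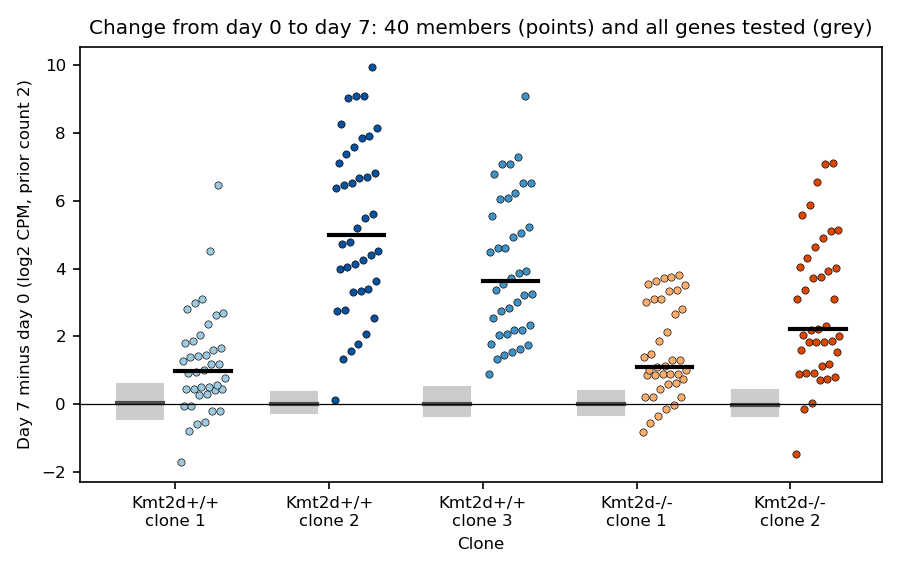
Change from day 0 to day 7 in each clone (log2 CPM, prior count 2); points are the 40 members, black bars their median, grey boxes the middle 50% of all genes tested with its median as a dark line. The member medians of the Kmt2d+/+ clones are 0.98, 4.99 and 3.64, those of the Kmt2d-/- clones 1.11 and 2.21, and the medians of all genes lie between -0.01 and 0.03.

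The median over the members was above 0 in each clone, by very different amounts. It was 0.98 in wild-type clone 1, 4.99 in clone 2 and 3.64 in clone 3, with 32, 40 and 40 of the 40 members higher at day 7. In mutant clones 1 and 2 it was 1.11 and 2.21, with 35 and 38 members higher. Members higher at day 7 in all 5 clones numbered 27, beside 20.2% of all genes tested. Of the other members, Herc6, which encodes the mouse ligase for Isg15, was higher at day 7 in only 2 clones, both wild-type. Every other one was higher at day 7 in 4 clones.

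The regulators carry the signal or feed it back. In wild-type clones 1 of 4 rose from day 0 to day 7, and 4 of 4 with the block, with a median log2 fold change of 4.80 without it. Stat2 (ENSMUSG00000040033, chromosome 10, 128270559 to 128292849), a subunit of ISGF3, was at 9.94, 9.05 and 11.5 CPM at day 0, then 34.8, 171.8 and 83.1 CPM at day 7 in wild-type clones. In the mutant clones it was at 12.7 and 17.5 CPM at day 0, then 23.3 and 52.9 CPM at day 7. The days did not overlap in either genotype. Stat2 rose in wild-type clones (log2 fold change of 3.25, SE 0.56, edgeR adjusted p = 0.0222) and missed the threshold in mutant clones (1.34, SE 0.63, edgeR adjusted p = 0.379). Across the alternatives its adjusted p in wild-type clones ran from 1.95e-08 to 0.239, and it passed in 12 of 14. Irf9, the DNA-binding subunit, was at 12.7, 18.3 and 16.7 CPM at day 0, then 21.8, 228.0 and 134.5 CPM at day 7 in wild-type clones. Its mutant values were 10.9 and 17.6, then 28.5 and 82.2 CPM. Here too no day 7 value fell within the day 0 range of its genotype. Usp18, a protease that strips Isg15 from proteins and dampens the receptor, was at 0.315, 4.78 and 1.47 CPM at day 0, then 2.25, 427.5 and 113.3 CPM in wild-type clones. The mutant clones had 0.266 and 0.825 CPM, then 4.21 and 50.5 CPM. Both genes missed the threshold without the block (edgeR adjusted p = 0.0524 for Irf9 and 0.0738 for Usp18, wild-type clones) and passed with it (0.0348 and 0.0105). Irf7, which amplifies interferon production, reached 2.52, 244.3 and 39.9 CPM at day 7 in wild-type and 2.15 and 14.9 CPM in mutant clones, from at most 2.11 CPM at day 0. For Irf7 the day 7 level of wild-type clone 1 was close to that of mutant clone 1, and for Usp18 it was below both mutant clones.

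**Figure D3:**
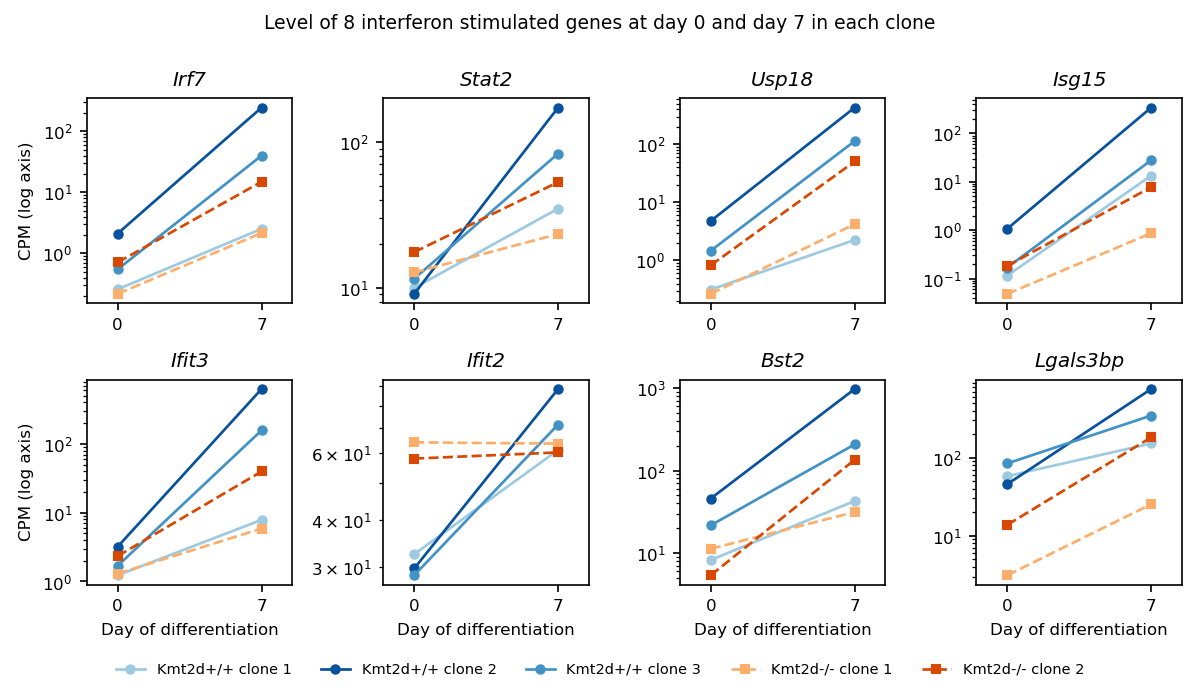
CPM (log axis) of 8 members at day 0 and day 7, with 1 line per clone; solid blue lines with circles are Kmt2d+/+ clones and dashed orange lines with squares Kmt2d-/- clones. Stat2, Usp18 and Isg15 are higher at day 7 in every clone, by the most in Kmt2d+/+ clones 2 and 3, whereas Ifit2 is flat in the Kmt2d-/- clones at 58.0 to 64.0 CPM.

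The Ifit genes encode proteins that bind foreign RNA and block its translation. They belong to a group of 10 effectors, of which 4 rose in wild-type clones and 7 with the block (median log2 fold change 4.94). Ifit2 (ENSMUSG00000045932, chromosome 19, 34550694 to 34576419) behaved apart from its neighbours. It was at 32.5, 29.8 and 28.6 CPM at day 0, then 61.1, 88.4 and 71.3 CPM at day 7 in wild-type clones, and rose (log2 fold change of 1.28, SE 0.16, edgeR adjusted p = 0.0101). Its mutant values were 64.0 and 58.0 CPM at day 0, then 63.5 and 60.2 CPM at day 7 (0.02, SE 0.19, edgeR adjusted p = 0.985). The mutant clones therefore held at both days about the level that wild-type clone 1 reached at day 7. The call in wild-type clones was lost without clone 1 (edgeR adjusted p = 0.0654) and without clone 3 (0.199), over a range of 1.02e-09 to 0.199 across alternatives. Ifit3 (ENSMUSG00000074896, chromosome 19, 34583531 to 34588731) was at 1.23, 3.20 and 1.69 CPM at day 0, then 7.86, 626.4 and 157.1 CPM in wild-type clones. In the mutants it stood at 1.3 and 2.34 CPM, then 5.88 and 39.7 CPM. It rose in wild-type clones (log2 fold change of 7.01, SE 1.5, edgeR adjusted p = 0.0381, and 0.0222 with the block). The near-identical Ifit3b (ENSMUSG00000062488, chromosome 19, 34607970 to 34613401) was at 0.458, 1.37 and 0.611 CPM at day 0, then 1.99, 196.2 and 59.2 CPM in wild-type clones, and at 0.266 and 0.504 CPM, then 2.12 and 16 CPM in mutant clones. It also rose (log2 fold change of 6.71, SE 1.54, edgeR adjusted p = 0.0439, and 0.0199 with the block). Transcripts of Ifit3 share 61.8% of their 31-base stretches with those of Ifit3b, so the split of reads between the pair is uncertain. Ifit1, the cap-sensing member of the family, was at 2.02, 245.9 and 102.0 CPM in wild-type and 5.87 and 36.6 CPM in mutant clones at day 7, from at most 2.37 CPM at day 0.

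Further effectors act on viral membranes, nucleotides and particle release. Cmpk2 (ENSMUSG00000020638, chromosome 12, 26469204 to 26479837), a mitochondrial nucleotide kinase, was at 1.57, 3.16 and 1.26 CPM at day 0, then 3.11, 142.3 and 31.6 CPM in wild-type clones. Mutant clones gave 1.01 and 0.458 CPM, then 3.81 and 4.24 CPM. Cmpk2 rose in wild-type clones (log2 fold change of 4.88, SE 1.16, edgeR adjusted p = 0.0474, and 0.0407 with the block), although clone 1 at day 7 lay below clone 2 at day 0. Without any single clone Cmpk2 did not pass (3.61 to 5.30 on the log2 scale), and the same held for Ifit3 and Ifit3b. Its neighbour Rsad2, whose product viperin makes a chain-terminating nucleotide, was at 1.5, 281.4 and 55.4 CPM at day 7 in wild-type clones. These rose from 0.0286, 2.69 and 0.0632 CPM at day 0 (1, 116 and 3 counts). In mutant clones Rsad2 was at 0.386 and 0.321 CPM, then 0.885 and 5.85 CPM. Wild-type clone 1 at day 7 thus remained below clone 2 at day 0 for both genes. Bst2, the tether that holds budding virions, was at 8.19, 45.7 and 21.6 CPM at day 0, then 42.6, 976.5 and 207.6 CPM at day 7 in wild-type clones. Its mutant values were 11.2 and 5.34, then 31.3 and 135.0 CPM. Every clone was higher at day 7, and day 7 values of wild-type clone 1 still overlapped day 0 values of clone 2. Ifitm3, which blocks fusion of viral and endosomal membranes, was at 41.4, 59.7 and 57.7 CPM at day 0, then 56.1, 593.4 and 157.4 CPM at day 7 in wild-type clones. The mutant levels were 14 and 22.4 CPM, then 9.63 and 37.0 CPM. Ifitm3 was thus lower at day 7 in mutant clone 1 and higher in mutant clone 2. Mx1, a dynamin-like GTPase against influenza, was at 0.411, 52.0 and 4.62 CPM at day 7 in wild-type and 0.808 and 2.66 CPM in mutant clones. Mx2 stayed at or under 0.981 CPM in every library.

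Isg15, a ubiquitin-like protein attached to newly made proteins, had the largest estimate among the members that passed. Of the 5 members of the Isg15 and ubiquitin group 1 rose in wild-type clones, and 3 with the block. Isg15 (ENSMUSG00000035692, chromosome 4, 156199424 to 156200818) was at 0.115, 1.07 and 0.169 CPM at day 0, then 13.4, 340.7 and 27.9 CPM at day 7 in wild-type clones. Mutant clones 1 and 2 had 0.0483 and 0.183 CPM at day 0, then 0.865 and 7.74 CPM at day 7. All 3 wild-type clones lay above both mutant clones at day 7, and the days did not overlap in either genotype. Isg15 rose in wild-type clones (log2 fold change of 8.12, SE 1.68, edgeR adjusted p = 0.0347, and 0.00192 with the block). Its adjusted p ran from 8.27e-07 to 0.242 across alternatives, and of the fits without 1 clone it passed only in the one without wild-type clone 2. In mutant clones it missed the threshold without the block (5.17, SE 2.08, edgeR adjusted p = 0.289) and passed with it (5.12, SE 0.42, edgeR adjusted p = 0.00725). Trim25, a ubiquitin ligase that activates the sensor Ddx58, was at 54.5, 63.5 and 75.7 CPM at day 0, then 73.6, 217.5 and 141.6 CPM at day 7 in wild-type clones. Its mutant values were 52.4 and 75.3, then 87.8 and 125.8 CPM. The lowest wild-type value at day 7 overlapped the day 0 range, and Trim25 passed with the block alone (log2 fold change of 1.04, SE 0.25, edgeR adjusted p = 0.0387). Trim30a, a ubiquitin ligase family member, reached 2.71, 188.8 and 43.2 CPM at day 7 in wild-type and 1.19 and 7.83 CPM in mutant clones, and passed with the block (edgeR adjusted p = 0.0403). Dtx3l and Herc6, both ubiquitin ligases, passed in edgeR neither with nor without it and were called in DESeq2.

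The sensors recognise viral nucleic acid. None of the 4 passed in wild-type clones without the block and 2 did with it, at a median log2 fold change of 4.04. Eif2ak2, the kinase PKR that halts translation on double-stranded RNA, was at 45.0, 49.6 and 44.6 CPM at day 0, then 55.4, 206.9 and 138.8 CPM at day 7 in wild-type clones. In the mutants it stood at 40.2 and 49.3 CPM, then 46.8 and 90.9 CPM. Wild-type days did not overlap, and mutant days did. The estimate in wild-type clones was 1.53 on the log2 scale (SE 0.43, edgeR adjusted p = 0.0703, and 0.0463 with the block). Ifih1, the sensor MDA5 for long double-stranded RNA, was at 3.46, 10.1 and 5.10 CPM at day 0, then 9.57, 176.6 and 68.4 CPM in wild-type clones. Mutant levels were 1.38 and 5.13 CPM, then 3.46 and 20.7 CPM. Ifih1 likewise passed in wild-type clones with the block alone (edgeR adjusted p = 0.0193, against 0.076). Zbp1, a sensor of Z-form nucleic acid, was at 0.143, 0.0232 and 0.0211 CPM at day 0, then 0.0658, 61.1 and 1.92 CPM at day 7 in wild-type clones. Both mutant libraries of day 0 had 0, which allows up to 3 counts each, and those of day 7 had 0.288 and 0.293 CPM. Wild-type clone 1 thus had no more Zbp1 at day 7 than before. Dhx58, the regulator LGP2, was at 3.19, 126.7 and 46.1 CPM in wild-type and 2.98 and 10.9 CPM in mutant clones at day 7.

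The Oas genes encode enzymes that make 2-5 oligoadenylates, which activate an RNase, and the related Oasl proteins. They include the 4 members with the widest spread between wild-type clones at day 7. Oas3 was at 0.172, 0.325 and 0.274 CPM at day 0, then 0.164, 199.9 and 3.22 CPM at day 7 in wild-type clones, a range of 985-fold between clones at day 7 once a prior count of 2 is added. In mutant clones Oas3 was at 0.121 and 0.229 CPM, then 0.250 and 0.733 CPM. Clone 2 alone was above 4 CPM. Oas2 was at 0, 0.0928 and 0.0843 CPM at day 0, then 0.0164, 37.3 and 1.39 CPM at day 7 in wild-type clones. The mutant clones had 0 and 0.0917 CPM, then 0.0385 and 0.257 CPM. Oas1a, one of the enzymes proper, was at 0, 0.232 and 0 CPM at day 0, then 0.0822, 142.6 and 6.03 CPM in wild-type clones. Both mutant clones were at 0 at day 0, then at 0.442 and 5.24 CPM. Oas1g, whose transcripts share 55.1% of their 31-base stretches with other genes, chiefly Oas1a, was at 0, 0.0696 and 0 CPM at day 0, then 0.0493, 59.3 and 2.51 CPM in wild-type clones. In mutant clones Oas1g was at 0.0242 and 0.0688 CPM, then 0.115 and 1.39 CPM. For all 4 of these genes wild-type clone 1 was below both mutant clones at day 7, but for Oas2 (1 count against 2 and 14) and Oas1g (3 counts against 6 and 76) it held no more than 3 counts, so that order is not firm at this depth. Oasl2, which binds double-stranded RNA, was at 0.315, 2.83 and 0.927 CPM at day 0, then 1.25, 695.1 and 131.9 CPM in wild-type clones. The mutant clones had 0.290 and 0.115 CPM, then 4.42 and 20.8 CPM. Oasl1, a translational brake on Irf7, was at 0.0859, 0.302 and 0.0843 CPM at day 0, then 0.148, 77.9 and 3.71 CPM in wild-type clones. Its mutant values were 0.0483 and 0.0917 CPM, then 0.846 and 1.3 CPM. None of the 6 passed in wild-type clones without the block, where the smallest edgeR adjusted p was 0.0547. With it all but Oas3 did.

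Parp9 and Parp14 are mono-ADP-ribosyltransferase family members of the interferon response. Parp9, partner of Dtx3l, was at 12.3, 20.7 and 11.1 CPM at day 0, then 16.8, 220.3 and 65.2 CPM at day 7 in wild-type clones. In mutant clones Parp9 was at 8.62 and 7.93 CPM, then 17.5 and 39.4 CPM. Parp14 was at 3.95, 8.49 and 5.08 CPM, then 4.82, 194.7 and 47.7 CPM in wild-type clones, and at 2.25 and 3.46 CPM, then 2.62 and 14.4 CPM in mutant clones. In edgeR neither passed with or without the block, and DESeq2 called both. Parp9 and Dtx3l lie side by side and share 8.54% of the 31-base stretches of Parp9.

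The chemokines call in lymphocytes. Cxcl10 was at 0.200, 1.67 and 0.506 CPM at day 0, then 0.691, 46.7 and 12.2 CPM at day 7 in wild-type clones. In mutant clones Cxcl10 was at 0.121 and 0.642 CPM, then 0.962 and 2.44 CPM. It rose in wild-type clones with the block only (edgeR adjusted p = 0.014, against 0.0855). Ccl5 was at 0.859, 0.859 and 0.464 CPM, then 0.559, 14.1 and 2.26 CPM in wild-type clones. Its mutant values were 0.0483 and 0.0688 CPM, then 0.0962 and 0.348 CPM. Every mutant value of Ccl5 lay below every wild-type value at the same day, and the mutant values at day 0 rest on 2 and 3 counts.

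The other 7 members include secreted, nuclear and cytosolic proteins, and 3 of them passed in wild-type clones with the block and none without it. Lgals3bp, a secreted glycoprotein that binds galectins, was at 57.9, 45.8 and 84.3 CPM at day 0, then 151.7, 754.9 and 345.6 CPM at day 7 in wild-type clones. The mutant levels were 3.12 and 13.8 CPM, then 25.3 and 181.6 CPM. The days did not overlap in either genotype. With the block Lgals3bp rose in both genotypes (log2 fold change of 2.46, SE 0.52, edgeR adjusted p = 0.0295 in wild-type clones, and 3.39, SE 0.64, edgeR adjusted p = 0.0412 in mutant clones). Xaf1, a proapoptotic antagonist of XIAP, was at 78.3, 216.7 and 52.0 CPM, then 156.5, 541.5 and 265.5 CPM in wild-type clones. Mutant clones 1 and 2 had 29.9 and 106.4 CPM, then 23.4 and 232.7 CPM, so that clone 1 was lower at day 7. Ifi44, an interferon-induced cytoplasmic protein, was at 0.659, 6.40 and 1.54 CPM at day 0, then 1.81, 537.0 and 73.3 CPM in wild-type, and at 2.80 and 0.573 CPM, then 5.21 and 57.8 CPM in mutant clones. For Ifi44, wild-type clone 1 ended below both mutant clones. Samd9l, which restrains poxvirus translation, Sp100, a nuclear body protein, Ifi35 and the receptor chaperone Rtp4 did not pass in wild-type clones without the block, and Rtp4 passed with it.

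In the mutant clones alone, day 7 against day 0, 39 estimates were positive, with a median log2 fold change of 2.05 against 0.00 for all genes. Setting the 3 members that had no counts at day 0 (Oas1a, Zbp1 and Rtp4) at the bound given by 3 counts per library moved the median to 2.00. No member passed in edgeR, 9 had an unadjusted p under 0.05 beside 14.8% of all genes, and the smallest adjusted p was 0.158. Of all genes 0.672% rose and 0.595% fell. With the replicate block 8 members rose, among 3.16% of all genes. They were Ifit1, Irf7, Isg15, Lgals3bp, Oas1a, Oas1g, Rtp4 and Usp18. DESeq2 called 5 higher and none lower, where 3.63% of all genes were higher and 2.74% lower. Without mutant clone 2 the median was 1.26.

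The change was then compared between genotypes through the difference of the day effects. The estimate was lower in mutant clones for 36 of 40 members, with a median of -1.90 on the log2 scale against -0.03 for all genes. No member passed in edgeR, 3 had an unadjusted p under 0.05 beside 3.67% of all genes, and 0% of all genes passed. Without wild-type clone 2 the median was -0.82. Ifit2 had the smallest unadjusted p among the members (0.000655, with a log2 difference of -1.26, SE 0.25, edgeR adjusted p = 1). In DESeq2, which called 1 member beside 0.084% of all genes in that direction, its adjusted p was 0.0156. That the set rose less in mutant clones was therefore not shown by this test.

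At day 0 the genotypes were compared before the change of medium, when the chondrogenic marker sum was already higher in the mutant clones. Estimates were negative for 36 of 40 members, with a median log2 fold change of -1.05 against 0.01 for all genes, or -0.91 with Oas1a, Zbp1 and Rtp4 at their bound. Without wild-type clone 2 the median was -0.33. In edgeR 1 member was higher in mutant clones and none lower, where 1.17% of all genes were higher and 0.976% lower. The member was Ifit2, with the CPM values given above (log2 fold change of 1.01, SE 0.17, edgeR adjusted p = 0.0286), and its groups did not overlap. The adjusted p of Ifit2 ran from 7.63e-05 to 0.217 across alternatives. It was 0.101 with only the groups compared, 0.0591 in limma-voom with the clone as a random replicate block, and 0.095, 0.217, 0.134 and 0.120 without wild-type clone 1, wild-type clone 3, mutant clone 1 and mutant clone 2. Both mutant clones lay below all wild-type clones for 13 members, beside 18.3% of all genes. Among them were Lgals3bp, Ifitm3, Samd9l and Ccl5. Samd9l was at 54.9, 51.8 and 48.2 CPM in wild-type and 16.7 and 25.5 CPM in mutant clones. DESeq2 called Ccl5 and Lgals3bp lower, among 5.65% of all genes, and Ifit2 higher, among 4.9%. In edgeR Lgals3bp had an estimate of -2.88 (SE 1.02, edgeR adjusted p = 0.157) and Ccl5 one of -3.57 (SE 1.41, edgeR adjusted p = 0.196).

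At day 7 the genotypes were compared after 7 days in the medium with insulin. Estimates were negative for 39 of 40 members, with a median log2 fold change of -3.16 against -0.02 for all genes. None passed in edgeR, where 0.905% of all genes were higher and 0.97% lower, and 20 members had an unadjusted p under 0.05, beside 19.9% of all genes. DESeq2 called 11 lower, among 6.06% of all genes. They were Ccl5, Cmpk2, Dtx3l, Herc6, Ifi35, Ifitm3, Isg15, Samd9l, Sp100, Trim30a and Zbp1. Without wild-type clone 2 the median was -1.28, and without any other clone it was between -4.58 and -2.48. Both mutant clones lay below all wild-type clones for 3 members, beside 19.8% of all genes. These were Isg15, Ifitm3 and Ccl5, whose values in every library are given above. Ifitm3 came nearest to the threshold (log2 fold change of -3.53, SE 0.99, edgeR adjusted p = 0.0994, with a range of 0.00471 to 0.39 across alternatives). Isg15 had an estimate of -4.89 (SE 1.69, edgeR adjusted p = 0.155) and Ccl5 one of -4.65 (SE 1.35, edgeR adjusted p = 0.107). Against the spread between clones no single member reached the edgeR threshold, and the members were not tested as a set. The chondrogenic markers did not follow the same order, since both mutant clones lay above all wild-type clones in their sum at both days. Their part in the result was not tested.

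**Figure D4:**
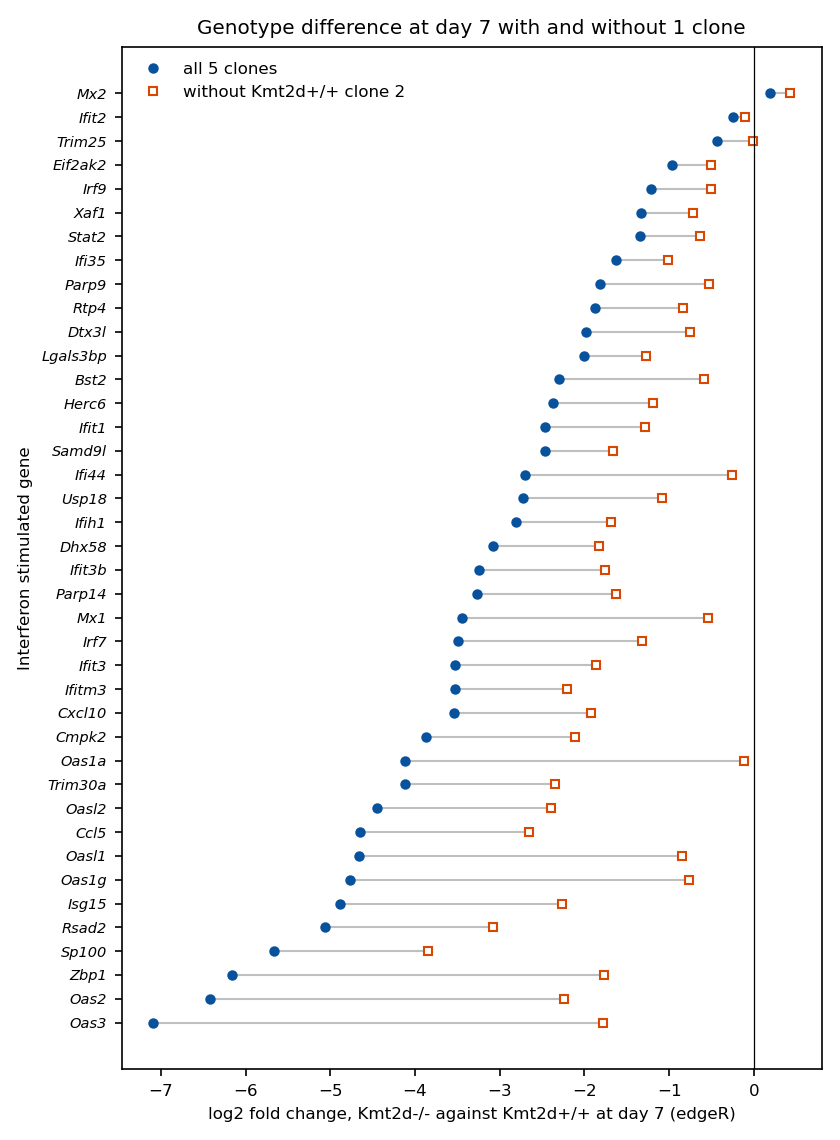
Log2 fold change of each of the 40 members in Kmt2d-/- against Kmt2d+/+ clones at day 7 (edgeR), with all 5 clones (filled circles) and without Kmt2d+/+ clone 2 (open squares). All members but Mx2 are below 0 in both fits, and the median moves from -3.16 to -1.28.

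The upstream part of the pathway was read from 39 tested genes on a separate list. Between genotypes at day 7, 0 of the 39 passed in edgeR, and 10 had an unadjusted p under 0.05, beside 19.9% of all genes. DESeq2 called 1 higher and 6 lower there, beside 4.24% and 6.06% of all genes. At day 0, 1 was lower in mutant clones in edgeR, beside 0.976% of all genes. In DESeq2 1 was higher and 2 were lower at day 0, beside 4.9% and 5.65%. Over time, 2 rose in wild-type clones in edgeR, beside 3.05% of all genes. DESeq2 called 4 higher and 1 lower, beside 8.57% and 6.17% of all genes. In mutant clones 0 passed (3 at an unadjusted p under 0.05, beside 14.8% of all genes, and 0 in DESeq2). With the block 4 rose in wild-type clones (Irf1, Myd88, Pias1 and Tmem173), beside 10.3% of all genes. In mutant clones 1 rose with it (Tmem173, the adaptor STING), beside 3.16% of all genes. Transcripts of the ligands were low in every library. The 11 matched interferon genes summed to 0.0493 to 0.619 CPM in wild-type and 0.0367 to 0.0385 CPM in mutant clones at day 7. Ifnb1, the interferon most non-immune cells make first, was highest in wild-type clone 2 at day 7 with 0.486 CPM (33 counts), against 0.0493 and 0.0682 CPM in clones 1 and 3. It was at 0 and 0.0183 CPM in the mutant clones at day 7, and at 0 to 0.232 CPM in all day 0 libraries. Ifng, the type II interferon, was at most 0.0737 CPM, in the same library as the highest Ifnb1 value. The clone with the highest ligand counts was therefore also the one with the highest member levels, and whether the one bears on the other was not tested.

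No receptor or kinase passed in any of the comparisons in edgeR or DESeq2 with all clones, and 2 had an unadjusted p under 0.05 between genotypes at day 0 in each, beside 20.2% of all genes in edgeR. Ifnar1 was higher in mutant clones at day 0 in edgeR once wild-type clone 2 was left out (log2 fold change of 0.96, adjusted p = 0.0291, against 0.68 with all clones). Jak1 was at 165.0, 237.8 and 239.4 CPM in wild-type and 209.3 and 188.0 CPM in mutant clones at day 7. Ifnar1 was at 50.4, 78.5 and 52.0 CPM, and 89.6 and 93.4 CPM, and Ifngr1 of the type II receptor at 80.7, 57.9 and 97.2 CPM, and 50.0 and 60.6 CPM. The group holds 10 tested genes, and Ifnar1 was highest in the mutant clones at day 7. Tyk2 was listed at 0 to 4.36 CPM over all libraries, and whether its reads were assigned elsewhere cannot be told from the table.

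**Figure D5:**
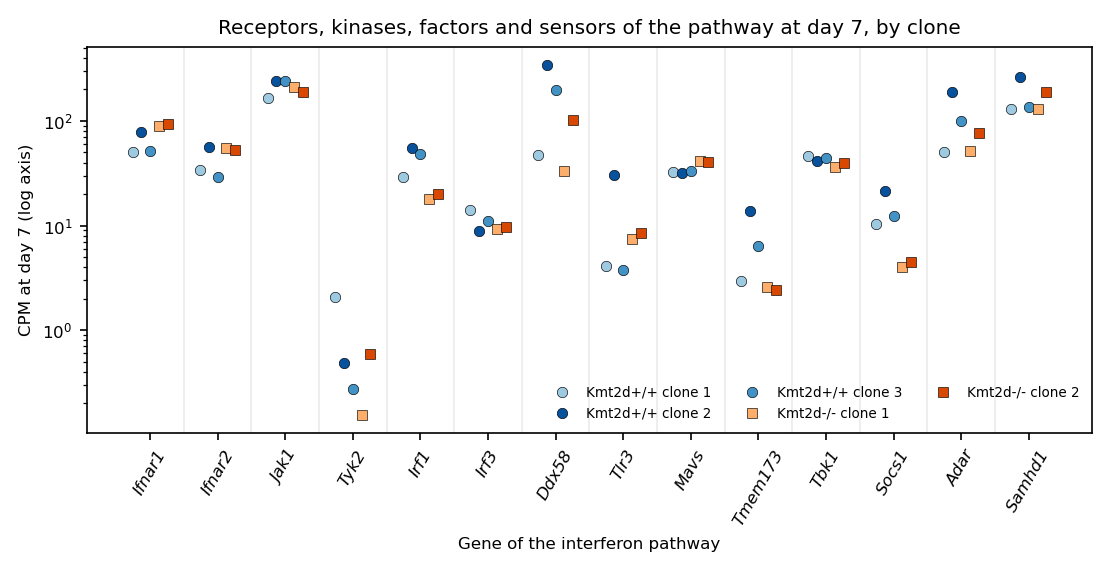
CPM at day 7 (log axis) of 14 genes of the pathway that are not members, with 1 point per clone; circles are Kmt2d+/+ and squares Kmt2d-/- clones. Mavs runs from 32.1 to 41.2 CPM and Tbk1 from 36.6 to 45.9 CPM, whereas Ddx58 runs from 33.4 to 345.3 CPM and is highest in Kmt2d+/+ clone 2.

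Factors and sensors outside the list followed the clones in part. Irf1, an early interferon target and factor, was at 19.3, 20.2 and 22.6 CPM at day 0, then 29.0, 55.2 and 48.5 CPM at day 7 in wild-type clones. In the mutants it stood at 21.8 and 18.1 CPM, then 17.8 and 20.2 CPM. It rose in wild-type clones (log2 fold change of 1.10, SE 0.24, edgeR adjusted p = 0.0382) but not without any single clone (edgeR adjusted p of 0.0697 to 0.296) or with only the groups compared (0.0619). At day 7 all wild-type values of Irf1 lay above the mutant values (log2 fold change of -1.22, SE 0.27, edgeR adjusted p = 0.0588). Irf2, which competes for the same element, was at 29.2, 41.1 and 30.5 CPM, and 23.4 and 26.6 CPM at day 7. Ddx58, the sensor RIG-I, was at 41.6, 59.8 and 57.2 CPM, then 46.9, 345.3 and 199.1 CPM in wild-type clones, and at 35.2 and 34.4 CPM, then 33.4 and 101.3 CPM in mutant clones. At day 7 Ddx58 thus had the order of clones that most members had. Myd88, the adaptor of Toll-like receptors, was at 24.0, 45.9 and 35.9 CPM, then 70.7, 87.8 and 61.1 CPM in wild-type clones and rose (log2 fold change of 1.05, SE 0.25, edgeR adjusted p = 0.0489). It passed neither without wild-type clone 1 or 3 nor without either mutant clone, and not with only the groups compared. In mutant clones Myd88 was at 52.8 and 44.2 CPM, then 71.9 and 53.9 CPM.

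Genes that restrain the response included Socs1, the 1 pathway gene that differed between genotypes in edgeR with all clones. Socs1 blocks Jak kinases and is itself induced by interferon. It was at 11.1, 9.28 and 9.69 CPM in wild-type and 2.46 and 1.40 CPM in mutant clones at day 0. It was lower in mutant clones (log2 fold change of -2.37, SE 0.40, edgeR adjusted p = 0.0274). The adjusted p was 0.0953 with only the groups compared, 0.0742 with the clone as a random replicate block, and 0.0836 to 0.182 without wild-type clone 1 or 3 or either mutant clone. At day 7 Socs1 was at 10.4, 21.2 and 12.3 CPM, and 4.02 and 4.49 CPM (log2 fold change of -1.78, SE 0.38, edgeR adjusted p = 0.053, and 0.000155 in DESeq2). The groups did not overlap at either day. Pias1, a SUMO ligase that restrains cytokine signalling, was at 53.7, 50.2 and 53.1 CPM, and 50.5 and 52.3 CPM at day 7. Ptpn2, a phosphatase of Jak1, was at 25.4, 28.8 and 28.6 CPM, and 19.6 and 20.6 CPM, and DESeq2 called it lower in mutant clones at both days. Of the genes that keep self nucleic acid from the sensors, Adar was at 50.6, 188.3 and 100.8 CPM, and 52.1 and 76.8 CPM at day 7, in the order of the members. Samhd1 was at 130.1, 262.5 and 135.2 CPM, and 129.3 and 188.1 CPM. None of the 7 genes of that kind passed in either genotype comparison in edgeR. DESeq2 called Trex1, an exonuclease that degrades cytosolic DNA, lower in mutant clones at day 7 (log2 fold change of -1.53, adjusted p = 0.0294).

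The genes outside the list whose pattern over the 10 libraries was most like the mean of the members were sought among 10501 genes of 5 CPM or more on average. By Pearson's r of log2 CPM they were Irgm2 (0.990), Igtp (0.989), Iigp1 (0.989), Apol9b (0.978), Oas1b (0.977), Hap1 (0.975), Apol9a (0.971), Ddx60 (0.969), Ddx58 (0.963) and Shisa5 (0.961). Irgm2, Igtp and Iigp1 encode immunity-related GTPases. Iigp1 was at 0.954, 129.8 and 23.4 CPM in wild-type and 0.558 and 4.71 CPM in mutant clones at day 7. Shisa5 was at 66.9, 510 and 187 CPM, and 73.1 and 115.5 CPM. The 10 libraries come from 5 clones, and the r describes these libraries only. Within the set, each member was compared in the same way with the mean of the others. Parp9 was the most alike (0.992) and Mx2 (0.355), Ifit2 (0.568) and Xaf1 (0.773) the least.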

How the data were processed

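RNA-seq counts from 10 libraries, each run on 2 flow cells, were taken from the deposited gene table. The deposited values are estimated counts per gene that the authors made with Salmon on GRCm38, per the submitters' processing notes, and only 0.351% of the values above 0 lie within 0.001 of a whole number. Not given in the sources used here are tool versions, the annotation and the strand setting. The runs of a library (r from 0.989 to 0.992) were summed per clone and day and rounded, so a clone counts once.

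Genes were filtered with filterByExpr and scaled with TMM. The 4 groups were fitted together with edgeR 4.0.16 (R 4.3.3) by quasi-likelihood on 6 residual degrees of freedom. P-values were adjusted over 15467 genes by the Benjamini-Hochberg method at 0.05. Each SE was derived from the test, as the size of the log2 fold change over the square root of its F statistic. Alternatives were DESeq2 1.42.0, limma-voom 3.58.1, size factors, filters, single runs, only the groups compared, a clone block and leaving out each clone. The fit was tested on simulated data with 200 changed genes, all well counted, with a common spread and no differences between clones. It therefore does not check the fit for members with few counts or wide ranges between clones.

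The numbers pair libraries because day 0 and day 7 of a clone are the same cell line. Deviations from the group means correlated at 0.36 to 0.57 within a clone and at -0.46 to 0.10 between clones. Such deviations cancel within a group, so low values between clones are partly built in. For the pair of mutant clones the value between clones is fixed as the value within a clone with its sign reversed.

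The members and lists were chosen with earlier results of these data known. Values in every library are given for members passing a test, the 2 most counted of each role and the 10 with the widest wild-type range at day 7. Of the pathway list, passing genes and the 2 most counted of each role are given, and other members are named in addition. Gene positions are from GENCODE vM21 (GRCm38), in which 411 gene IDs found no symbol. Shared sequence is the share of a gene's 31-base transcript stretches that occur in other genes.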

Additional observations from a re-analysis of the deposited data

How the results depend on the processing

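The median log2 difference kept its sign in every comparison under all alternatives run, while the number of members that passed moved. For day 7 against day 0 in wild-type clones 6 members rose, against 37 in DESeq2, 2 in limma-voom, 13 with no filter on low counts, 11 when only genes averaging 5 CPM or more in some group were kept, 3 with only the groups compared and 25 with the replicate block. With 1 clone left out the count was 0 to 3. In mutant clones no member passed, against 5 in DESeq2 and 8 with the replicate block. Between genotypes at day 7 none passed and DESeq2 called 11. At day 0 the count of 1 became 3 in DESeq2, 0 with only the groups compared, 0 with the clone as a random replicate block and 0 to 1 with 1 clone left out, and the median of -1.05 became -1.56 to -0.33. For the difference of the day effects DESeq2 called 1 and edgeR none. The cause of these changes was not tested, except that fits without a clone or with fewer groups have fewer samples.

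The 2 or 3 clones per group limit every comparison. Depth limits Oas1a, Oas1g, Oas2, Oasl1, Rtp4, Zbp1, Mx2, Rsad2, Ccl5, Isg15 and the ligands at day 0, where at least 1 library holds 3 counts or fewer.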

Other observations

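Genes of antigen presentation, which interferons also induce, were read as a list of 9. At day 7 Tap2, a subunit of the peptide transporter, was at 65.2, 212.4 and 102.8 CPM in wild-type clones 1, 2 and 3 and at 19.6 and 30.6 CPM in mutant clones 1 and 2. H2-K1, a class I heavy chain, was at 265.5, 960.6 and 311.5 CPM, and 144.2 and 173.7 CPM. Psmb8, an immunoproteasome subunit, was at 4.52, 258.7 and 48.6 CPM, and 1.02 and 2.09 CPM. Both mutant clones lay below all wild-type clones for Tap1, Tap2, Tapbp, H2-K1, H2-D1, Psmb8, Psmb9 and Nlrc5, and B2m overlapped, beside 19.8% of all genes tested. For most members of the interferon list wild-type clone 1 lay within or below the mutant range. None of the 9 passed between genotypes at day 7 in edgeR, where 8 had an unadjusted p under 0.05 beside 19.9% of all genes, and DESeq2 called 7 lower, among 6.06% of all genes. The smallest edgeR adjusted p was 0.0622, for Tap2 (log2 fold change -2.34, SE 0.55, range over alternatives 0.000165 to 0.313). From day 0 to day 7 in wild-type clones 1 rose in edgeR, among 3.05% of all genes, and 6 with the replicate block, among 10.3%. H2-K1 was the one without it (log2 fold change 2.28, SE 0.52, edgeR adjusted p = 0.0431, and 0.0183 with the block).

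The guanylate-binding proteins, GTPases that act on intracellular pathogens, were read from 5 matched genes. Gbp2, Gbp3 and Gbp7 had the clone order of the interferon list at day 7, with Gbp3 at 3.12, 255.8 and 69.8 CPM in wild-type and 3.88 and 35.7 CPM in mutant clones. Gbp9 did not. It was at 102.6, 471.4 and 457.3 CPM in wild-type clones, at 239.0 CPM in mutant clone 1 and at 9.33 CPM in mutant clone 2. Gbp4 likewise was at 4.23 CPM in mutant clone 1 and at 0 in clone 2, and it was at 0 in all day 0 libraries. None of the 5 passed between genotypes at day 7 in edgeR (1 at an unadjusted p under 0.05, beside 19.9% of all genes) or in DESeq2.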
